A study of Pan troglodytes with 217 samples.

Results

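OLAH encodes a thioesterase that releases fatty acids from the fatty acid synthase, and it was followed here with 8 genes of fatty acid synthesis and modification, FASN, ACACA, ACLY, SCD, ELOVL5, ELOVL6, FADS1 and FADS2, in single cells of chimpanzee blastoids. The genes were found by matching Ensembl chimpanzee identifiers to gene symbols, and each of the 9 symbols had 1 identifier among 33729. OLAH was chosen by its read counts, because it led the epiblast-like cells in an earlier look at the same data, so its level in the classes is a description and was not tested. Blastoids are stem cell-derived structures that resemble the blastocyst. They were formed from chimpanzee naive induced pluripotent stem cells, collected at day 4 of the protocol and profiled by SMART-seq2, in which each cell has its own full-length cDNA library. All cells belong to 1 condition, without a control group, and the labels name neither the blastoid nor the cell line nor the plate of a cell, so the cells form 1 sample and no test was computed. The mural trophectoderm was largely excised by hand and handled apart from the inner cell masses, which limits what the number of cells in each class can say about a whole blastoid.

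Cells build long fatty acids in a fixed order of steps. ACLY cleaves citrate to acetyl-CoA, ACACA carboxylates acetyl-CoA to malonyl-CoA, and FASN condenses both into a growing chain that it normally frees as palmitate. OLAH, a separate thioesterase that is best known from the lactating mammary gland, cuts the chain from FASN earlier and so yields medium-chain fatty acids. ELOVL6 extends palmitate and related chains, SCD places the first double bond into saturated chains, and ELOVL5, FADS1 and FADS2 lengthen and desaturate polyunsaturated chains taken up from outside. In the blastocyst the epiblast forms the embryo proper, the hypoblast the yolk sac lining and the trophectoderm the placental lineage.

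The cells with at least 8000 detected genes fell into 50 epiblast-like cells, 32 hypoblast-like cells and a pair of trophectoderm-like (TE-like) clusters, a larger one of 60 cells and a smaller one of 51. These cells held 1679888 to 25630392 reads, with medians close to each other in the 3 classes, between 3951120 and 3978820. Detected genes had medians of 11736.5 in epiblast-like, 10993.5 in hypoblast-like and 10986 in TE-like cells. The clusters were named by the first 3 marker lists below, so the sums of these lists describe the labels and cannot test them. Summed over a cell, the epiblast list had a median of 2277 CPM, the reads of a gene scaled to a common total of reads, in epiblast-like, 460 in hypoblast-like and 52.3 in TE-like cells. The hypoblast list had medians of 7.82, 1091 and 268 CPM in the same order, and the trophectoderm list 1736, 2591 and 9249 CPM. The last list, which holds keratins, was thus present in all 3 classes, and 46 of the 50 epiblast-like cells and 31 of the 32 hypoblast-like cells carried at least 3 markers of more than 1 class at 10 CPM, against 6 of 60 and 7 of 51 cells of the TE-like clusters. Of 5 lists for other lineages, the syncytiotrophoblast list had median sums of 0.205 to 34.4 CPM over the classes and clusters and the primitive streak or mesoderm list 1.82 to 16.2 CPM. Medians reached 44.7 CPM for extraembryonic mesoderm, in the larger TE-like cluster, and 44.9 CPM for neural genes, in epiblast-like cells. The amnion list had medians of 237.01 CPM in epiblast-like, 327 in hypoblast-like and 41.5 in TE-like cells. No doublet caller was run.

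OLAH was by far highest in the epiblast-like cells, as its choice implies. Its reads summed over those 50 cells amounted to 122.3 CPM (95% interval 120.8 to 123.8), against 5.40 CPM (5.00 to 5.82) in hypoblast-like cells and 1.10 CPM (1.01 to 1.20) in TE-like cells. The intervals are exact Poisson intervals and cover counting error only, since every PCR copy of a molecule counts as a read. Epiblast-like cells held 95.4% of all OLAH reads but 25.02% of all reads. Within the TE-like cells OLAH stood at 1.36 CPM in the larger and 0.826 CPM in the smaller cluster. A single cell held 262 of the 362 OLAH reads of the larger cluster, and without the highest cell of each the order turned, with 0.384 CPM in the larger and 0.517 CPM in the smaller cluster.

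**Figure D1:**
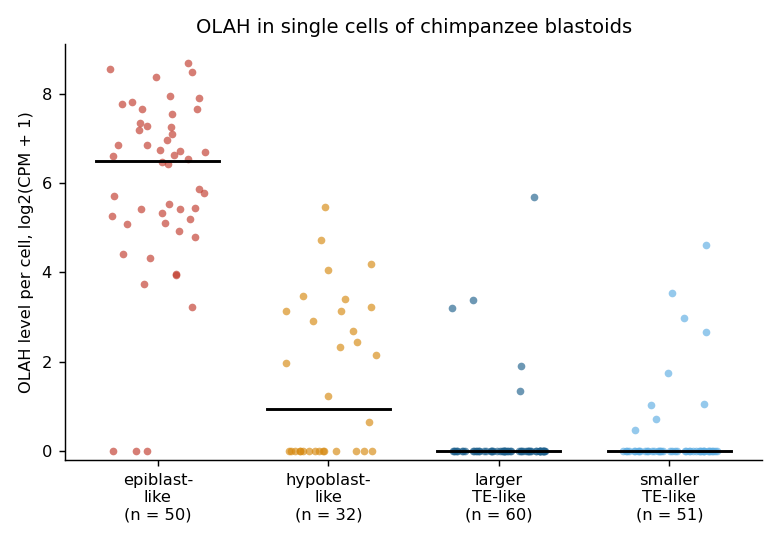
OLAH in each cell as log2(CPM + 1), by class, with a point per cell and a black line at the class median. The epiblast-like cells have a median of 90.02 CPM, while the median of both TE-like clusters is 0, with 5 cells of the larger and 9 of the smaller one above 0.

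Per cell, OLAH ranged from 0 to 411 CPM in epiblast-like cells, with a median of 90.02. In hypoblast-like cells it ranged from 0 to 43.03 CPM with a median of 0.957, and in TE-like cells from 0 to 50.6 CPM with a median of 0. The classes overlap at their edges, as 3 epiblast-like cells had no OLAH read and a few cells elsewhere reached the level of low epiblast-like cells. At least 10 CPM were found in 46 epiblast-like, 5 hypoblast-like and 3 TE-like cells, and at least 100 CPM in 22 epiblast-like cells and in no cell of the other classes. OLAH was uneven among the epiblast-like cells too, since 9 of them held at least 50% of their OLAH reads, and the top cell held 8.77%.

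A read of OLAH was present in 47 of 50 epiblast-like cells (94%, exact binomial 95% interval 83.5% to 98.7%), 17 of 32 hypoblast-like cells (53.1%, 34.7% to 70.9%) and 14 TE-like cells (12.6%, 7.07% to 20.3%). With every cell thinned to 2532312 reads, which leaves out 20 shallower cells, 2 of them epiblast-like, 7 hypoblast-like and 11 TE-like, the shares were 93.8%, 44% and 12%. The order of the classes was the same at this depth.

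Some of the cells with OLAH reads outside the epiblast-like class also carried epiblast markers. The hypoblast-like cell with the highest level, 43.03 CPM, carried 4 of the 9 measured epiblast markers at 10 CPM or more, and the highest cell of the larger TE-like cluster, 50.6 CPM, carried 3. In the smaller TE-like cluster the highest cell, 23.4 CPM, carried 5. The next hypoblast-like cells by level, at 25.7, 17.3 and 15.6 CPM, carried 4, 2 and 5 markers. Lower down, a cell of each TE-like cluster, at 8.20 and 5.33 CPM, carried 1 marker. The sum of the epiblast list ranged from 84.1 to 1855 CPM in hypoblast-like cells, from 0 to 626 CPM in TE-like cells and from 989 to 5913 CPM in epiblast-like cells. The number of its 9 genes at 1 CPM or more in the pooled class was 7, 4 and 9, and ARGFX, one of them, had a read in none of the 32 hypoblast-like cells. Without the 17 hypoblast-like and 11 TE-like cells that had at least 3 epiblast markers, OLAH was 2.97 CPM in hypoblast-like and 0.215 CPM in TE-like cells. Whether reads of other cells contribute to these low levels was not tested.

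In the RefSeq annotation of a newer chimpanzee assembly, OLAH overlaps a transcribed pseudogene, LOC737738, and SMART-seq2 libraries do not keep the strand, so reads from a shared stretch cannot be told apart. The next gene with an identifier in the table, ACBD7, which encodes an acyl-CoA binding protein, was far lower but had the same order of classes. It stood at 3.98 CPM in epiblast-like, 0.910 in hypoblast-like and 0.0833 in TE-like cells, with a read in 44, 11 and 13 cells.

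Of the genes that supply the carbon units, ACLY and ACACA were present in nearly every cell and stayed within 2-fold between classes in pooled CPM. ACLY, the citrate-cleaving enzyme, had reads in 98.96% of the cells. Its level per cell ranged from 0 to 127.3 CPM with a median of 43.004 in epiblast-like cells, from 6.71 to 143.5 with a median of 44.6 in hypoblast-like cells and from 0 to 231.7 with a median of 66.1 in TE-like cells. The 3 ranges overlap over most of their length. ACACA, which makes malonyl-CoA and is regarded as the committed step, had reads in every cell, with pooled levels of 104.4, 144.1 and 80.2 CPM in the same order. Its median per cell was 95.7 CPM in epiblast-like cells (1.58 to 285), 146.05 CPM in hypoblast-like cells (27.7 to 519) and 68.999 CPM in TE-like cells (14.5 to 278). Hypoblast-like cells had the highest ACACA level of the 3 classes, and 22 of 32 of them reached 100 CPM, against 23 of 50 epiblast-like cells and 12 of 60 and 10 of 51 cells of the TE-like clusters.

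FASN, the synthase on which OLAH acts, did not share the distribution of OLAH. It had its lowest levels in the epiblast-like cells. Its median per cell was 27.1 CPM in epiblast-like cells (0 to 197.9), 53.97 CPM in hypoblast-like cells (9.80 to 304) and 41.8 CPM in TE-like cells (11.6 to 575). Pooled over cells, FASN stood at 33.7, 67.96 and 53.2 CPM. The ranges overlap, and 99.5% of the cells had a FASN read.

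SCD, which introduces the first double bond into saturated chains, was lowest in the class in which OLAH was highest. In epiblast-like cells it ranged from 8.16 to 1060 CPM with a median of 106.2. In hypoblast-like cells it ranged from 134.3 to 1552 CPM with a median of 545, and in TE-like cells from 135.1 to 4828 CPM with a median of 627. Every hypoblast-like and every TE-like cell had at least 100 CPM of SCD, against 28 of the 50 epiblast-like cells. The upper range of the epiblast-like cells still lies within that of the other classes.

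Of the desaturases of polyunsaturated chains, FADS1 had the same order of classes as SCD, with smaller differences. Its medians were 25.1 CPM in epiblast-like (0 to 117.7), 28.3 CPM in hypoblast-like (0.694 to 175.1) and 34.8 CPM in TE-like cells (0 to 334), with ranges that overlap widely. FADS2, which acts before FADS1 in the same pathway, was low, with a read in 68.4% of the cells and a maximum of 75.4 CPM. It separated the TE-like clusters from each other. In the smaller cluster it ranged from 0 to 75.4 CPM with a median of 11.2, and in the larger cluster from 0 to 54.3 CPM with a median of 0. A read was present in 48 of 51 and 29 of 60 of these cells, and after thinning in 44 of 46 (95.7%) and 26 of 54 (48.1%). FADS2 had medians of 4.09 CPM in epiblast-like cells (0 to 30.7) and 0.591 CPM in hypoblast-like cells (0 to 29.8). In the newer RefSeq annotation FADS1 and FADS2 overlap, so some of their reads cannot be told apart without strand. ACACA, ACLY, ELOVL5 and ELOVL6 overlap other annotated genes there as well, while FASN and SCD do not.

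Of the elongases, ELOVL6, which extends palmitate, had a median of 111.004 CPM in epiblast-like cells (0 to 467), 105.8 CPM in hypoblast-like cells (8.79 to 288) and 156.1 CPM in TE-like cells (2.67 to 808). Within the latter its median was 212.4 CPM in the larger and 116.6 CPM in the smaller cluster. ELOVL5, which acts on polyunsaturated chains, had medians of 118.8 CPM in epiblast-like (0 to 193.97), 66.7 CPM in hypoblast-like (0 to 192.95) and 123.2 CPM in TE-like cells (0 to 722). Its lowest class was thus the hypoblast-like one, in which 6 of 32 cells reached 100 CPM, against 30 of 50 epiblast-like cells and 40 of 60 and 35 of 51 cells of the TE-like clusters. The transcript lengths were not used, so levels are compared between classes for each gene and not between genes.

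**Figure D2:**
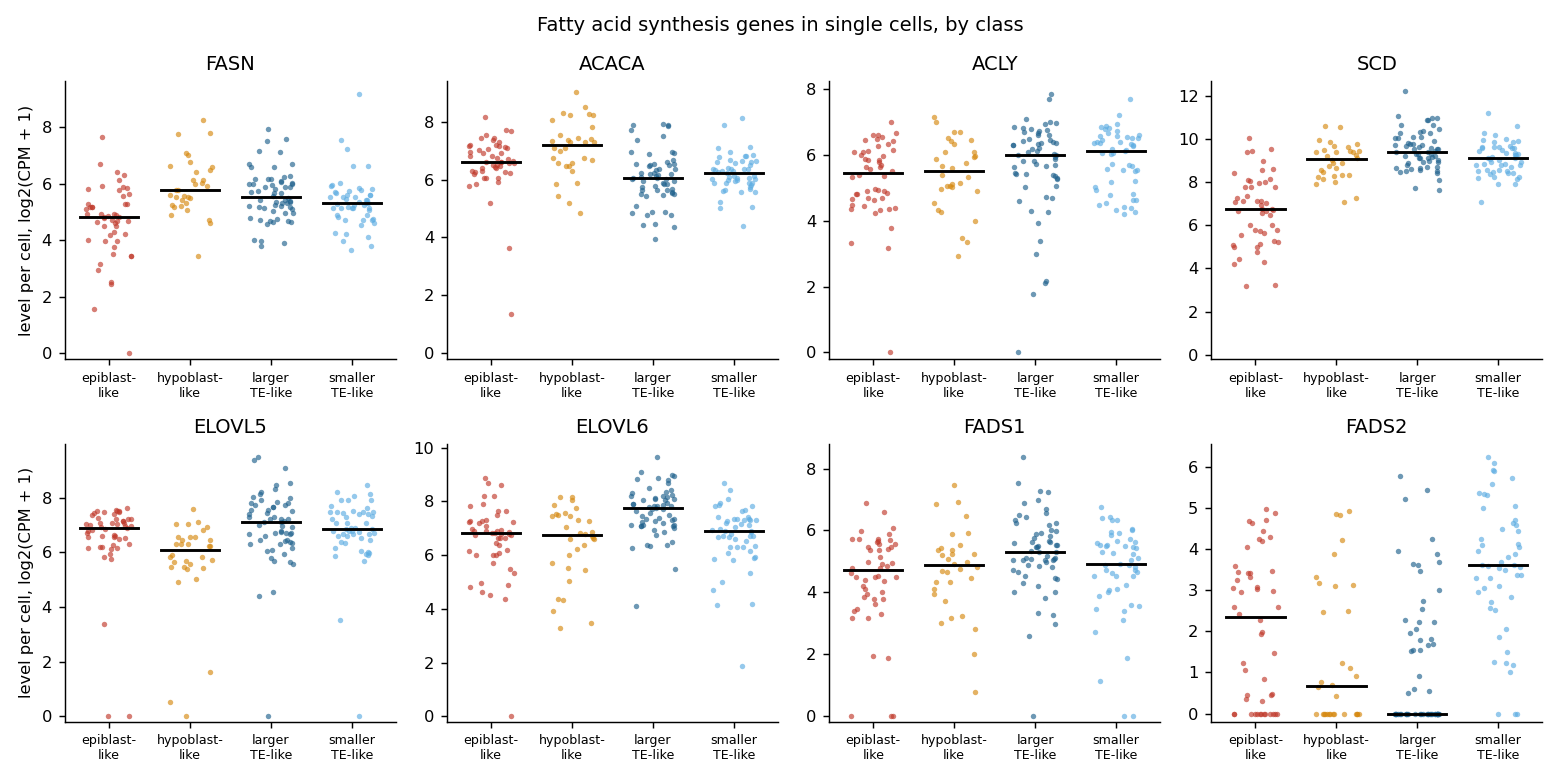
The other 8 genes in each cell as log2(CPM + 1), with a panel per gene, a point per cell and a black line at the median of each class. SCD is lower in most epiblast-like cells than elsewhere, with a median of 106.2 CPM, and FADS2 is mostly above 0 in the smaller TE-like cluster and has a median of 0 in the larger one.

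To set these genes against the rest of the transcriptome, ratios of pooled levels were computed with 1 CPM added to each. A gene was called higher or lower where this ratio was at least 2-fold, among 15804 genes with a read in at least 20 cells, which all 9 genes passed. The clusters were formed with the same genes, so the ratios describe the classes and test nothing. When the listed fatty acid genes, a small part of the genes used, were left out of the clustering, every cell kept its class. Giving each cell the class of its own highest marker score, without clustering, changed the class of some cells. A clustering resolution of 1.5 did so too.

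Between epiblast-like and TE-like cells 1 of the 9 genes was called higher and 1 lower, where 15% of all genes were called higher and 7.6% lower. OLAH was 58.7-fold higher in epiblast-like cells (log2 ratio 5.87), and SCD was 4.16-fold lower (log2 ratio -2.06). The other 7 genes were within 2-fold, and 6 of them were on the lower side, with log2 ratios of -0.66 for FADS2, -0.65 for FASN, -0.61 for ELOVL6, -0.55 for ACLY, -0.48 for FADS1 and -0.33 for ELOVL5. ACACA stood on the higher side at 0.38. For FADS2 the side turned with medians over cells (0.11). Its pooled level in epiblast-like cells, 6.73 CPM, was also above the 3.38 CPM of the larger TE-like cluster. The median log2 ratio of the 9 genes was -0.55, against 0.07 over all genes.

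Against hypoblast-like cells, epiblast-like cells also had 1 gene called higher, OLAH (19.3-fold, log2 ratio 4.27), and 1 called lower, SCD (3.28-fold, log2 ratio -1.71), where 10.7% of all genes were called higher and 3.98% lower. FASN lay just inside the threshold, 1.99-fold lower in epiblast-like cells. Its log2 ratio of -0.99 became -1.16 with median-ratio scaling and -0.71 with a filter of 9000 detected genes. The median over the 9 genes was -0.15, against 0.11 over all genes.

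Hypoblast-like cells differed from TE-like cells by 1 gene called higher, OLAH, and 1 called lower, FADS2, where 8.58% of all genes were called higher and 8.18% lower. OLAH was 3.04-fold higher at low levels (log2 ratio 1.61), and 0.47 on the log2 scale with 10 CPM added in place of 1. FADS2 was 2.16-fold lower (log2 ratio -1.11), and -0.53 with 10 CPM added. This held against the smaller TE-like cluster, at 19.6 CPM, and not the larger one. There FADS2 was 3.38 CPM, below the 4.67 CPM of hypoblast-like cells. ELOVL5 lay just inside the threshold at 2.00-fold lower, and ACACA was 1.79-fold higher. The median over the 9 genes was -0.34, against -0.02 over all genes.

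Between the TE-like clusters, 5.49% of all genes were called higher in the smaller one and 3.97% lower. Of the 9 genes only FADS2 passed 2-fold, 4.70-fold higher in the smaller cluster, with pooled levels of 19.6 against 3.38 CPM. ELOVL6 and FADS1 were on the lower side, with log2 ratios of -0.66 and -0.45, and the other 6 genes had log2 ratios between -0.37 and 0.13. The cluster with more FADS2 also held most of the reads of CCR7, a marker of polar trophectoderm in the human blastocyst, at 315 against 5.71 CPM. CDX2, on the same trophectoderm list, went the other way, at 1.62 against 24.8 CPM, and GATA3 differed little, at 708 against 676 CPM. The whole list had a median sum of 8167 CPM in the smaller and 10852 CPM in the larger cluster. The syncytiotrophoblast list had median sums of 34.4 and 0.215 CPM in this order.

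**Figure D3:**
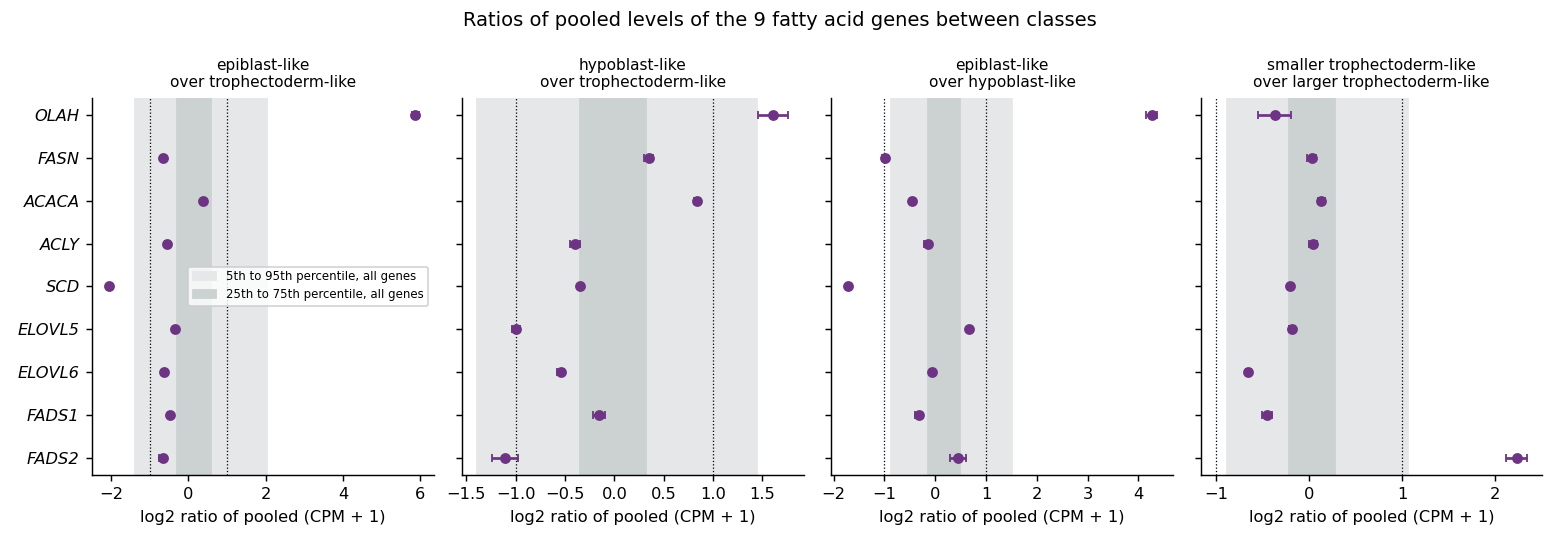
Log2 ratio of pooled (CPM + 1) of the 9 genes in 4 comparisons of classes, with bars for the 95% interval from read counting, grey bands for the spread of all 15804 genes and dotted lines at 2-fold. OLAH (5.87) and SCD (-2.06) lie outside the bands in the first panel, and FADS2 (2.23) does so in the last.

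Further genes of fatty acid metabolism were taken from 10 lists with 98 genes by step, OLAH and the other 8 genes included. A total of 97 had an identifier and 87 passed the filter on cells with a read. Between epiblast-like and TE-like cells 14 of the 87 were called higher and 15 lower, beside 15% and 7.6% of all genes, with a median log2 ratio of 0.00. Between hypoblast-like and TE-like cells 9 were higher and 12 lower, beside 8.58% and 8.18% of all genes. Between epiblast-like and hypoblast-like cells the counts were 9 and 8, beside 10.7% and 3.98%. In the smaller against the larger TE-like cluster 8 were higher and 9 lower, beside 5.49% and 3.97%. The lists hold 3 to 14 tested genes each, so a single gene is a large share of a list.

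Of 11 tested genes of fatty acid uptake and activation, 6 were called lower and 1 higher in epiblast-like than in TE-like cells, beside 7.6% and 15% of all genes, with a median log2 ratio of -1.03 (0.07 over all genes). In hypoblast-like cells 4 were called lower and 1 higher than in TE-like cells, beside 8.18% and 8.58% of all genes, with a median of -0.61 (-0.02 over all genes). FABP5, a carrier of fatty acids in the cytosol, stood at 117.6 CPM in epiblast-like, 492 in hypoblast-like and 752 in TE-like cells. ACSL3, which activates fatty acids to acyl-CoA, had 140.8, 318 and 454 CPM in this order. ACSL6, another acyl-CoA synthetase, and SLC27A6, a fatty acid transporter, were mainly found in TE-like cells, with 46.1 and 32.6 CPM there, 2.42 and 3.06 CPM in epiblast-like cells and 0.280 and 0.163 CPM in hypoblast-like cells. ACSL1 and the scavenger receptor CD36 were called lower in both classes as well. For ACSL1 the TE-like level came mostly from the smaller cluster, at 19.2 CPM against 2.21 in the larger one. Epiblast-like cells had 4.61 CPM of ACSL1 and hypoblast-like cells 1.89. CD36 was low throughout, at 2.19 CPM in TE-like cells, with a read in 22 of them. The transporter SLC27A3 was the gene called higher, at 8.0 CPM in epiblast-like against 1.89 CPM in TE-like cells. The muscle-type carrier FABP3 set the TE-like clusters apart, with 439 CPM in the larger and 33.2 CPM in the smaller one, while epiblast-like cells had 352 CPM.

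Of 8 genes listed for glycerolipid storage, 5 were called higher in hypoblast-like than in TE-like cells and 1 lower. This stood beside 8.58% and 8.18% of all genes (median log2 ratio 1.07). DGAT2, which catalyses the last step of triglyceride synthesis, stood at 41.8 CPM in hypoblast-like, 11.2 in epiblast-like and 0.434 in TE-like cells. It had a read in 27, 33 and 10 cells of these classes. LPIN2, a phosphatidate phosphatase, was at 91.95 CPM in hypoblast-like, 18.96 in epiblast-like and 12.05 in TE-like cells. In epiblast-like cells 3 of the 8 genes were called higher than in TE-like cells and 1 lower, beside 15% and 7.6% of all genes. The higher ones were the acyltransferase AGPAT2 (151.6 against 26.5 CPM), DGAT2 and the lipid droplet protein PLIN2 (184.7 against 89.8 CPM). GPAM, which attaches the first acyl chain to glycerol phosphate, was the gene called lower in both classes, with 15.6 CPM in epiblast-like, 15.7 in hypoblast-like and 38.4 in TE-like cells.

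Of the 12 genes of elongation, ELOVL1, HACD2 and HACD3 were called lower in epiblast-like than in TE-like cells and HACD1 higher, beside 7.6% and 15% of all genes, with a median log2 ratio of -0.44. HACD2, a dehydratase of the elongation cycle, stood at 96.8 CPM in epiblast-like, 355 in hypoblast-like and 370 in TE-like cells, an order like that of SCD. Of the 5 tested desaturases 1, SCD, was called lower in epiblast-like than in TE-like cells, beside 7.6% of all genes. In hypoblast-like cells 2 were, FADS2 and FADS3 (FADS3 at 42.9 against 99.6 CPM), beside 8.18%. The larger TE-like cluster alone had less FADS2 than the hypoblast-like cells. None of the desaturases was called higher in either comparison.

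In the supply of acetyl-CoA and malonyl-CoA, ACACB, the isoform of acetyl-CoA carboxylase that acts at mitochondria, and MLYCD, which degrades malonyl-CoA, were higher in epiblast-like than in TE-like cells, at 5.10 against 0.596 CPM and 18.8 against 8.12 CPM. ACSS2, which makes acetyl-CoA from acetate, was lower, at 6.28 against 27.8 CPM. These are 2 higher and 1 lower of 7 genes, beside 15% and 7.6% of all genes. Between hypoblast-like and TE-like cells 0 of the 7 passed 2-fold, which with 8.58% and 8.18% of all genes called is near the background. AASDHPPT, the enzyme that fits FASN with its carrier group, differed little, with 184.03 CPM in epiblast-like, 150.7 in hypoblast-like and 175.3 in TE-like cells.

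Of 12 other acyl thioesterases tested, 2 were called higher in epiblast-like than in TE-like cells, a share near the 15% of all genes, ACOT8 (40.4 against 10.7 CPM) and PPT2 (69.7 against 18.04 CPM), and PPT1 was lower. PPT1, the lysosomal thioesterase that removes palmitate from proteins, stood at 137.2 CPM in epiblast-like and 92.5 in hypoblast-like cells and at 1482 and 494 CPM in the larger and smaller TE-like clusters. Between hypoblast-like and TE-like cells ACOT8 and PPT2 were also called higher, with 22.7 and 77.1 CPM in hypoblast-like cells, and THEM5 and PPT1 lower, beside 8.58% and 8.18% of all genes. THEM5 was low throughout, at 0.661 against 2.40 CPM. The 6 genes of mitochondrial fatty acid synthesis had 1 called higher in epiblast-like than in TE-like cells, the reductase subunit CBR4 (47.5 against 18.2 CPM), a share near the 15% of all genes, and none in hypoblast-like cells.

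Among 14 tested regulators, 2 were lower and 1 higher in epiblast-like than in TE-like cells, beside 7.6% and 15% of all genes. The lower ones were INSIG1, which retains the sterol-responsive factors in the endoplasmic reticulum, and the oxysterol receptor NR1H3. The related receptor NR1H2 was higher. INSIG1 stood at 86.8 CPM in epiblast-like, 170.8 in hypoblast-like and 197.3 in TE-like cells. SREBF1, the main activator of fatty acid synthesis genes, differed little, with 26.2, 26.3 and 20.4 CPM in the same order. Of 9 genes of fatty acid oxidation 2 were called higher in epiblast-like than in TE-like cells and none lower, beside 15% and 7.6% of all genes. The median log2 ratio of this list was 0.66 (0.07 over all genes). The genes called higher are the following. They were CPT1A, which carries acyl chains towards the mitochondrial matrix (9.78 against 0.858 CPM), and the dehydrogenase ACADM (73.6 against 21.7 CPM).

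**Figure D4:**
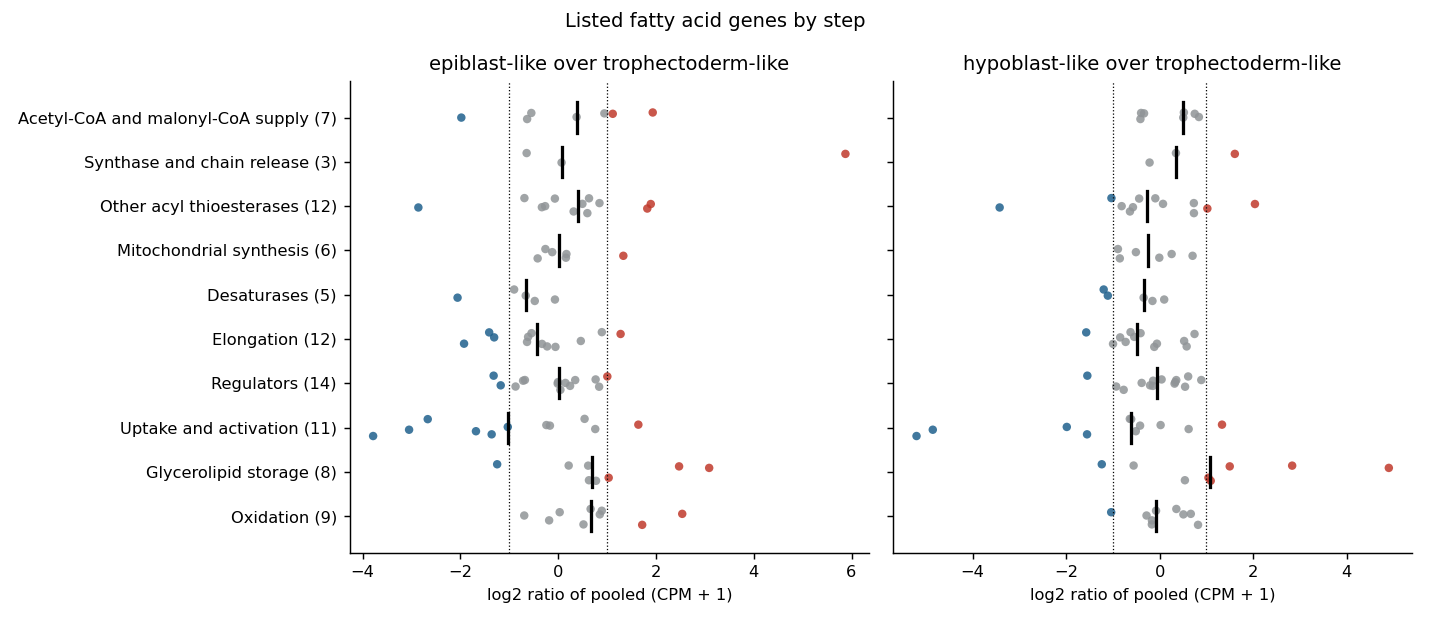
Log2 ratio of pooled (CPM + 1) of the 87 tested genes by step, for epiblast-like (left) and hypoblast-like cells (right) over TE-like cells, with a point per gene, a black line at the median of each list and dotted lines at 2-fold (red, higher; blue, lower). The uptake list has its median at -1.03 on the left, and the storage list has its median at 1.07 on the right.

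The genes whose levels followed OLAH most closely were sought by rank correlation of CPM over all cells above the filter, among 7801 genes with at least 10 CPM. The cells share classes and depth, so the coefficients describe likeness of pattern only. HEY2, a transcriptional repressor of the Notch pathway, came first (Spearman's rho 0.81), followed by LDB2, a cofactor of LIM-domain proteins (0.80), ENSPTRG00000050628, which has no symbol (0.80), the pluripotency factor NANOG (0.80) and UTF1, a chromatin-associated factor of pluripotent cells (0.79). The other five were OAS1, an interferon-induced enzyme (0.79), PIK3AP1, an adaptor of phosphoinositide signalling (0.78), the growth factor gene FGF4 (0.78), the inflammasome adaptor PYCARD (0.77) and PLA2G10, a secreted phospholipase that frees fatty acids from phospholipids (0.77). NANOG and FGF4 are on the epiblast list that named the class. HEY2 stood at 85.98 CPM in epiblast-like, 5.59 in hypoblast-like and 1.596 in TE-like cells, levels in the same order as those of OLAH. PLA2G10 had 40.6, 5.47 and 0.567 CPM.

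Inside the 50 epiblast-like cells other genes ranked first, and 0 of the 10 genes most like OLAH were shared between both rankings. Among 7971 genes these were ADISSP, a secreted signalling protein of adipose tissue (0.65), EIF3K, a subunit of a translation initiation factor (0.62), the mismatch repair gene MSH6 (0.62), ENSPTRG00000047328, which has no symbol (0.61), and CARHSP1, an RNA-binding protein (0.60). ADISSP differed little between classes, with 107.4 CPM in epiblast-like, 100.3 in hypoblast-like and 129.4 in TE-like cells. OLAH in CPM also had a rank correlation of 0.42 with the total reads of a cell and of 0.18 with its detected genes, and the part of depth in these rankings was not tested. Of the epiblast markers, PRDM14 (0.46), NANOG (0.40) and ARGFX (0.38) had the highest coefficients with OLAH within these cells, and SOX2 had -0.16.

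Among the fatty acid genes, ACACA ran against OLAH within the epiblast-like cells. The coefficient was -0.55, and 12 of 7971 genes had a lower one. It was -0.51 in cells thinned to 1 depth and -0.54 without the deepest cell, and Pearson's r of log2(CPM + 1) was -0.38. The 3 epiblast-like cells without an OLAH read all had more ACACA than the median of the class. In hypoblast-like and TE-like cells, in which OLAH is sparse, the coefficients of OLAH and ACACA were -0.22 and 0.05. FASN had a coefficient of 0.11 with OLAH in epiblast-like cells, SCD -0.21, and the other 5 genes lay between -0.16 and 0.06.

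Without OLAH, the other 8 genes form 28 pairs, whose coefficients in epiblast-like cells ranged from -0.15 to 0.60 with a median of 0.11. The closest pair was SCD and ELOVL6 (0.60), which act one after the other on saturated chains. ELOVL6 and FADS2 (0.50) and FASN and SCD (0.49) followed. Over the 32 hypoblast-like cells the 28 coefficients ranged from -0.17 to 0.44, and over the TE-like cells from -0.29 to 0.68.

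**Figure D5:**
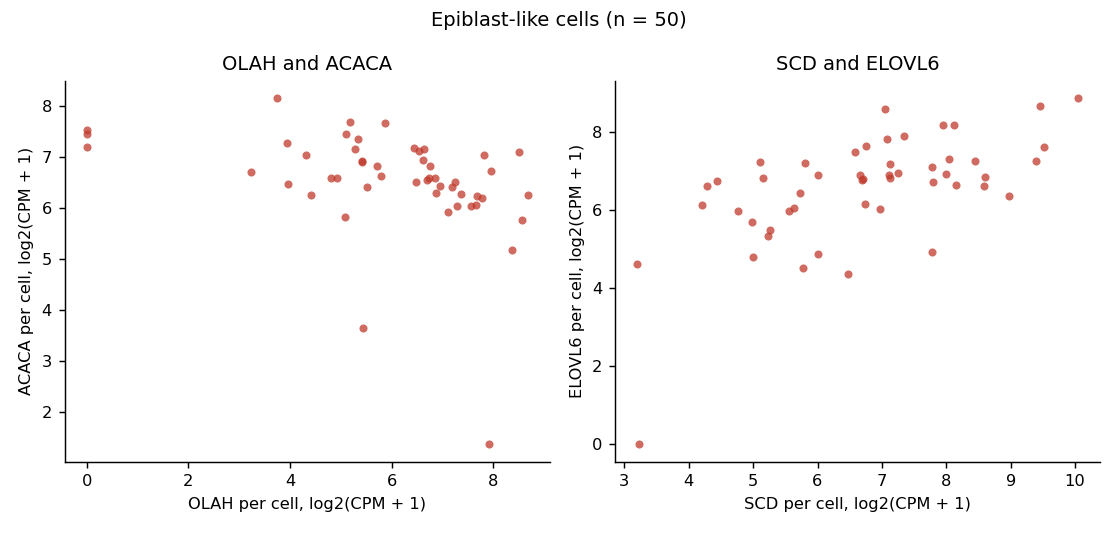
Levels as log2(CPM + 1) of OLAH and ACACA (left) and of SCD and ELOVL6 (right) in the 50 epiblast-like cells, a point per cell. Cells with more OLAH tend to have less ACACA (Spearman's rho -0.55), and cells with more SCD tend to have more ELOVL6 (0.60).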

How the data were processed

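The authors deposited unnormalized read counts per Ensembl gene for 217 cells. The paper's methods name FastP, STAR and a chimpanzee genome, whereas the submitters' processing notes name Trim Galore 0.6.6, STAR 2.7.7a and GRCh38. All identifiers are chimpanzee ones, and the difference could not be settled here. Reads are not molecules, and 18783 identifiers had a symbol.

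Cells with under 4000 reads or 8000 detected genes were left out, and 193 remained, 111 of them trophectoderm-like. The study's own analysis used fewer cells. Scanpy 1.11.5 (Python 3.11.15) normalized and log-transformed the counts, computed 50 components and 30 neighbours, and clustered with leidenalg 0.10.2 at a resolution of 1. Clusters were named from epiblast, hypoblast and trophectoderm lists, and 5 lists of other lineages were summed.

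The genes and lists were chosen with earlier results of these data known. Named are the 9 genes, up to 5 genes per list with the highest level and those past 2-fold, and the 10 (all cells) or 5 (epiblast-like cells) genes most like OLAH. SREBF1, CCR7, CDX2, GATA3 and ACBD7 were named after their values were seen. Intervals are 95% exact. Scripts were tested on simulated data.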

Additional observations from a re-analysis of the deposited data

Results flagged for a closer look

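OLAH reads also appeared in cells that entered no comparison. Of the 24 cells left out for fewer than 8000 detected genes, 7 had an OLAH read (29.2%, exact binomial 95% interval 12.6% to 51.1%). Their pooled OLAH level was 12.1 CPM, the median cell had 0 and the highest had 157.1 CPM. These cells were not assigned to a class.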

How the results depend on the processing

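The labels do not give the blastoid or culture of each cell, so all cells were treated as 1 sample and no replicate could be left out. No paired analysis was possible because all cells belong to 1 group without replicates. Of the alternative values for OLAH, the genes most like it and the counts of genes past 2-fold, 54 (24.7%) moved. These values were not scored for reversal. Of 477 alternative log2 ratios of the 9 genes, 49.9% lay outside the counting interval of the reported ratio. Another sign than reported was found for 18 of the 477, 0 of them for a ratio past 2-fold. These 18 had reported values of -0.66 to 0.45, such as ELOVL6 between epiblast-like and hypoblast-like cells (-0.07, and 0.11 with a mean over cells) and FASN between the trophectoderm-like clusters (0.03, and -0.08). Leaving out cells with markers of more than 1 class gave 5 of them, with few cells left. Counting depth limits statements on OLAH in trophectoderm-like cells, where 14 cells (12.6%) had a read.

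The OLAH level in epiblast-like cells was 117.3 CPM at Leiden resolution 1.5, 104.5 with classes from the marker score alone, 75.9 without cells that had markers of more than 1 class (which leaves 4 epiblast-like and 1 hypoblast-like cell), 110.8 as a mean and 90.02 as a median over cells, 114.6 without the cell highest in OLAH, 113.5 with median-ratio scaling and 125.3 without mitochondrial genes. In hypoblast-like cells it was 7.82 CPM with a filter of 7000 detected genes, 3.88 by marker score, 17.3 without cells with markers of more than 1 class, 2.97 without cells with 3 epiblast markers, 0.957 as a median and 4.38 without the highest cell. In trophectoderm-like cells it was 0.954 CPM at resolution 1.5, 1.20 by marker score, 0.219 without cells with markers of more than 1 class, 0.215 without cells with 3 epiblast markers, 0 as a median and 0.60 without the highest cell. The share of cells with OLAH was 100% in epiblast-like and 100% in hypoblast-like cells without cells with markers of more than 1 class, 7% in trophectoderm-like cells without cells with 3 epiblast markers, and at a minimum of 10 CPM 15.6% in hypoblast-like and 2.7% in trophectoderm-like cells.

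The number of genes lower in hypoblast-like than in trophectoderm-like cells was 2 with a filter of 7000 genes, resolution 1.5, marker score, without cells with 3 epiblast markers, without the deepest cell of each class and at 1.5-fold, 4 without cells with markers of more than 1 class, and 0 at 3-fold or with 10 CPM added. The number higher was 2 with a mean over cells or at 1.5-fold and 0 with 10 CPM added. The number lower in epiblast-like than in hypoblast-like cells was 2 with a filter of 7000 genes, resolution 1.5, marker score, without cells with markers of more than 1 class, a mean over cells, without the deepest cells, median-ratio scaling, without mitochondrial genes and at 1.5-fold. The number higher was 2 without either kind of mixed cells, with a median over cells and at 1.5-fold. Against trophectoderm-like cells, 5 genes were lower in epiblast-like cells without cells with markers of more than 1 class and 4 at 1.5-fold. Between the trophectoderm-like clusters 1 gene was lower at 1.5-fold. Of the 10 genes most like OLAH, 0 remained in epiblast-like cells alone. Median-ratio scaling shifted levels by -0.11 on the log2 scale in epiblast-like cells and by 0.06 in hypoblast-like cells. Leaving out cells with 3 epiblast markers or the deepest cell, the highest cell of each trophectoderm-like cluster, omitting mitochondrial genes from the totals and clustering settings for shares and counts were added after seeing the data. The causes of these changes were not tested.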

Other observations

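Among the same 24 cells, FASN stood at 179.2 CPM pooled, with a median of 166.2 CPM per cell, against 50.5 CPM pooled and a median of 38.9 CPM in the cells above the filter. SCD stood at 777 against 563 CPM pooled, but its median per cell was lower, at 228.2 against 483.1 CPM. ACACA stood at 141.5 against 95.8 CPM pooled, with medians of 125.4 and 84.1 CPM. ACLY had 50.9 against 61.6 CPM pooled, with medians of 16.4 and 53.9 CPM. The 24 cells had a median of 1660770 reads and 6893.5 detected genes, against 3960860 reads and 11270 genes, and no class was given to them. The cell just above the filter, with 8199 detected genes, had 0 OLAH reads, and the cell just below it, with 7984, had 14 (6.22 CPM).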
